A study of Mus musculus with 6 samples.

Results

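The 9 genes described here encode tissue factor (F3), its inhibitor (Tfpi), the thrombin and protein C receptors thrombomodulin and EPCR (Thbd, Procr), the plasminogen activators tPA and uPA (Plat, Plau), the uPA receptor (Plaur) and the serpins protease nexin-1 and PEDF (Serpine2, Serpinf1). They were found by symbol through the Ensembl identifiers on the mouse build GRCm38, and all 9 were present among the 55335 gene identifiers of the series. The list was chosen because F3 and Serpinf1 were lower after mitochondria were added, so the difference between the groups is given for these genes as a description, with no test. Levels are FPKM, fragments scaled to transcript length and library size, and changes are on the log2(FPKM + 1) scale, Mito_T minus Ctrl, with the standard error of the fit across all genes.

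RNA was sequenced in 6 libraries labelled bEnd.3, a line of mouse brain endothelial cells immortalised with the polyomavirus middle T antigen, of genotype WT. Mito_T cells (n = 3 libraries) received mitochondria isolated from primary mouse astrocytes in 100 µl of medium, and Ctrl cells (n = 3 libraries) received that volume of medium alone. Both groups were collected after 24 h, and all libraries came from 1 cell line. Read back from the FPKM, depth was 21800000 to 27200000 fragments per Mito_T library and 17000000 to 21100000 per Ctrl library, without overlap. Whether libraries of 1 group stem from different cultures is not stated in the labels, so standard errors and p-values cover the scatter among these libraries alone, which may be technical.

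Coagulation starts when tissue factor binds factor VIIa, and TFPI shuts that complex down. Endothelial cells hold clotting back through thrombomodulin and EPCR, which together turn thrombin into an activator of protein C, and they dissolve fibrin by releasing tPA, which makes plasmin from plasminogen. uPA does the same at cell surfaces that carry its receptor, and protease nexin-1 can block both activators. In brain, tissue factor is made mainly by astrocytes, and PEDF is a secreted serpin that inhibits no protease and is known for restraining vessel growth.

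The labelled cell type did not show in many of its defining markers. Of 16 endothelial markers listed, 8 stayed below 1 FPKM in every library. Across the 6 libraries Cdh5, Pecam1 and Cldn5 reached at most 0.0685, 0.268 and 0.129 FPKM, whereas Eng averaged 61.1 FPKM. Ly6c1, Tie1, Egfl7 and Esam averaged 8.42, 5.61, 3.90 and 1.33 FPKM, and the groups overlapped for each. Of 16 endothelial markers, 8 were tested and limma called 1, Cd34, higher in Mito_T, a call lost without any 1 of the 6 libraries, where 0.467% of all genes tested were called higher and 0.649% lower. Cd34 was at 80.1 ± 1.84 FPKM in Mito_T and 60.3 ± 2.49 FPKM in Ctrl (SD, n = 3). Flt1, at 7.75 ± 0.278 FPKM in Mito_T and 10.04 ± 0.932 FPKM in Ctrl, and Kdr, at 2.996 ± 0.262 FPKM in Mito_T and 3.94 ± 0.249 FPKM in Ctrl, were lower without overlap and were not called (limma adjusted p = 0.114 and 0.143). The difference in the sum was thus mostly that of Cd34, and the summed level was 170.0 to 182 FPKM in Mito_T and 149 to 157 FPKM in Ctrl. Of 13 fibroblast and mural markers 5 were tested and limma called 1, Col1a1, lower, at 83.9 ± 3.19 FPKM in Mito_T and 138 ± 2.45 FPKM in Ctrl (SD, n = 3; limma adjusted p = 0.00547), with Col1a2 at most 0.330 FPKM. Col3a1, the highest of the list, overlapped between the groups, at 231 ± 15.6 FPKM in Mito_T and 220 ± 7.34 FPKM in Ctrl (limma adjusted p = 0.702). Pdgfrb was at 51.7 ± 4.89 FPKM in Mito_T and 59.8 ± 10.6 FPKM in Ctrl (limma adjusted p = 0.563). Pdgfra, at 22.6 ± 0.587 FPKM in Mito_T and 18.4 ± 0.756 FPKM in Ctrl, and Acta2, at 2.18 ± 0.215 FPKM in Mito_T and 1.64 ± 0.107 FPKM in Ctrl, were higher without overlap and were not called (limma adjusted p = 0.0702 and 0.204). That list summed to 376 to 415 FPKM in Mito_T and 426 to 462 FPKM in Ctrl. Of 12 astrocyte markers, 4 were tested and none was called by limma, with 1 at an unadjusted p under 0.05, a level reached by 13.9% of all genes tested. Aqp4 was at 0 in every library, and Gfap reached 0.198 FPKM. Aldoc, the 1 under 0.05, was higher without overlap, at 17.9 ± 2.28 FPKM in Mito_T and 14.1 ± 1.61 FPKM in Ctrl (limma adjusted p = 0.268). Aldh1l1, too low to be tested, was at 0.972, 1.15 and 1.06 FPKM in Mito_T and at 0.416, 0.455 and 0.302 FPKM in Ctrl. Gja1 was at 24.1, 23.5 and 25.8 FPKM in Mito_T and at 45.7, 11.7 and 46.0 FPKM in Ctrl. Of the 4 tested, 2 had a positive and 2 a negative log2 change. The sums overlapped at 61.7 to 84.9 FPKM in Mito_T and 41.02 to 92.1 FPKM in Ctrl. Of 10 microglia and macrophage markers 2 were tested and none was called by limma, with 1, Tmem119, at an unadjusted p under 0.05. Tmem119 made up most of that sum, 184 to 211 FPKM in Mito_T and 228 to 275 FPKM in Ctrl. Cd68, also tested, overlapped, at 3.13 ± 0.428 FPKM in Mito_T and 3.76 ± 0.486 FPKM in Ctrl (limma adjusted p = 0.472). Csf1r, too low to be tested, was at 0.351 to 0.683 FPKM. Of the 10, 7 were under 0.1 FPKM in every library, among them Aif1, Cx3cr1, P2ry12 and Ptprc. The exact two-sided permutation test of 3 against 3 libraries gave its smallest possible p, 0.1, for the endothelial, the fibroblast and mural and the microglia and macrophage sums, and p = 1 for the astrocyte sum. The part of these differences in the values below was not tested.

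F3 was lower in each Mito_T library than in any Ctrl library, while the groups overlapped for its inhibitor. F3 (ENSMUSG00000028128, chromosome 3, 121723537 to 121735048, plus strand), the cell-surface receptor that starts coagulation, was at 5.87, 5.76 and 5.43 FPKM in Mito_T libraries and at 10.6, 10.04 and 10.01 FPKM in Ctrl libraries. The highest Mito_T library lay well below the lowest Ctrl library, and the spread within each group was small. The means were 5.69 ± 0.230 FPKM in Mito_T and 10.2 ± 0.308 FPKM in Ctrl (SD, n = 3), a Mito_T to Ctrl ratio of 0.557 and a log2 change of −0.74 (SE 0.06). The change lay between −0.76 and −0.72 when each library was left out. At the full exonic length of the gene, 2527 bases, these values stand for at most 318 to 535 fragments per library. In bulk RNA, fewer cells that express a gene and less of its RNA per cell cannot be told apart.

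Tfpi (ENSMUSG00000027082, chromosome 2, 84432855 to 84476775, minus strand), the Kunitz-type inhibitor of the tissue factor complex, was at 9.36, 8.63 and 9.33 FPKM in Mito_T libraries and at 9.14, 8.53 and 9.78 FPKM in Ctrl libraries. The groups overlapped throughout, and the log2 change was −0.0049 (SE 0.07). Within a library, F3 stood at 0.627, 0.667 and 0.582 times the Tfpi level in Mito_T, against 1.15, 1.18 and 1.02 times in Ctrl. F3 was below Tfpi per length in every Mito_T library and above it in every Ctrl library, as the left panel of the plot of ratios shows. F3 was chosen for its fall and Tfpi hardly changed, so this ratio restates the F3 values and is no further result. RNA levels per length of different genes do not give the balance of their proteins.

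**Figure D1:**
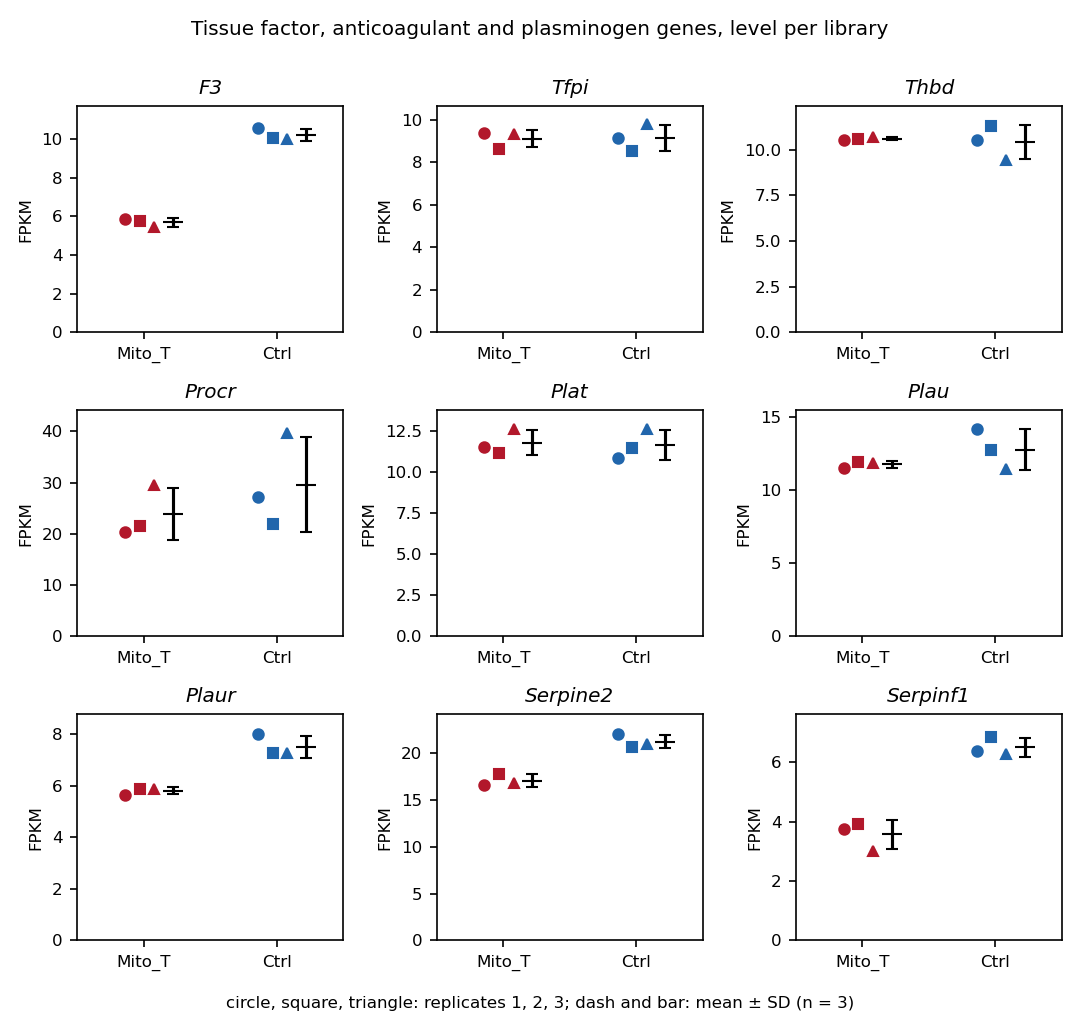
FPKM of the 9 genes in each library (y axis from 0), Mito_T left and Ctrl right; circles, squares and triangles are replicates 1, 2 and 3, and the dash and bar give the mean ± SD (n = 3). F3, Plaur, Serpine2 and Serpinf1 are lower in Mito_T without overlap, and the other 5 genes overlap.

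The receptors of the protein C pathway overlapped between the groups. Thbd (ENSMUSG00000074743, chromosome 2, 148404466 to 148408188, minus strand), which binds thrombin and redirects it to protein C, was at 10.5, 10.6 and 10.7 FPKM in Mito_T libraries and at 10.5, 11.3 and 9.45 FPKM in Ctrl libraries. Its log2 change was 0.02 (SE 0.07). F3 stood at 0.557, 0.545 and 0.508 times the Thbd level in Mito_T, against 1.002, 0.889 and 1.06 times in Ctrl, which again restates the fall of F3. Procr (ENSMUSG00000027611, chromosome 2, 155751117 to 155755471, plus strand), which presents protein C to that complex, was at 20.3, 21.6 and 29.6 FPKM in Mito_T and at 27.3, 21.9 and 39.8 FPKM in Ctrl. Procr varied more than any of the other 8 genes, replicate 3 was the highest library of both groups, and the groups overlapped. Its means were 23.8 ± 5.04 FPKM in Mito_T and 29.6 ± 9.18 FPKM in Ctrl (SD, n = 3), and its log2 change of −0.28 (SE 0.23) lay between −0.47 and −0.05 when each library was left out, nearest to 0 without Ctrl replicate 3. Pros1, which encodes the protein C cofactor protein S and is not one of the 9 genes, was at 23.8 ± 1.74 FPKM in Mito_T and 19.5 ± 1.47 FPKM in Ctrl (SD, n = 3; limma adjusted p = 0.175). Proc itself was under 1 FPKM in every library.

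Both plasminogen activators overlapped between the groups, and the uPA receptor was lower in Mito_T. Plat (ENSMUSG00000031538, chromosome 8, 22757727 to 22782844, plus strand), the fibrin-dependent activator tPA, was at 11.6, 11.2 and 12.7 FPKM in Mito_T libraries and at 10.9, 11.5 and 12.7 FPKM in Ctrl libraries, a log2 change of 0.02 (SE 0.08). Plau (ENSMUSG00000021822, chromosome 14, 20836660 to 20843385, plus strand), the urokinase uPA, was at 11.5, 11.9 and 11.9 FPKM in Mito_T and at 14.2, 12.7 and 11.4 FPKM in Ctrl. Ctrl was the more scattered group for Plau, and the log2 change of −0.11 (SE 0.08) was −0.03 without Ctrl replicate 1 and −0.18 without Ctrl replicate 3. Plaur (ENSMUSG00000046223, chromosome 7, 24462484 to 24475968, plus strand), the membrane anchor that holds uPA at the cell surface, was at 5.65, 5.88 and 5.89 FPKM in Mito_T and at 8.005, 7.26 and 7.26 FPKM in Ctrl. Every Mito_T library was below every Ctrl library, and the log2 change was −0.32 (SE 0.06).

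Of the serpins among the 9 genes, both were lower in Mito_T without overlap. Serpine2 (ENSMUSG00000026249, chromosome 1, 79794197 to 79861180, minus strand), a heparin-binding inhibitor of thrombin, uPA and tPA, was at 16.5, 17.8 and 16.8 FPKM in Mito_T libraries and at 22.04, 20.7 and 20.9 FPKM in Ctrl libraries. Its log2 change was −0.30 (SE 0.05). Serpinf1 (ENSMUSG00000000753, chromosome 11, 75409769 to 75422701, minus strand), which encodes PEDF, was at 3.75, 3.93 and 3.02 FPKM in Mito_T and at 6.36, 6.85 and 6.27 FPKM in Ctrl. The lowest library of all was Mito_T replicate 3, and the groups were far apart. The means were 3.57 ± 0.482 FPKM in Mito_T and 6.50 ± 0.311 FPKM in Ctrl (SD, n = 3), a Mito_T to Ctrl ratio of 0.550 and a log2 change of −0.72 (SE 0.09), which lay between −0.78 and −0.63 when each library was left out. Serpinf1 rests on the fewest fragments of the 9 genes, at most 171 to 313 per library at an exonic length of 2359 bases.

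All 9 genes passed the filter of 1 FPKM in at least 3 libraries, and 7 had a negative log2 change. F3, Plaur, Serpine2 and Serpinf1, 4 of 9, were lower without overlap, a criterion met in that direction by 11.4% of all genes tested. The genes were chosen on this contrast, so nothing is read from this count. The median log2 change of the 9 genes was −0.28, and that of all genes tested was −0.0061.

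**Figure D2:**
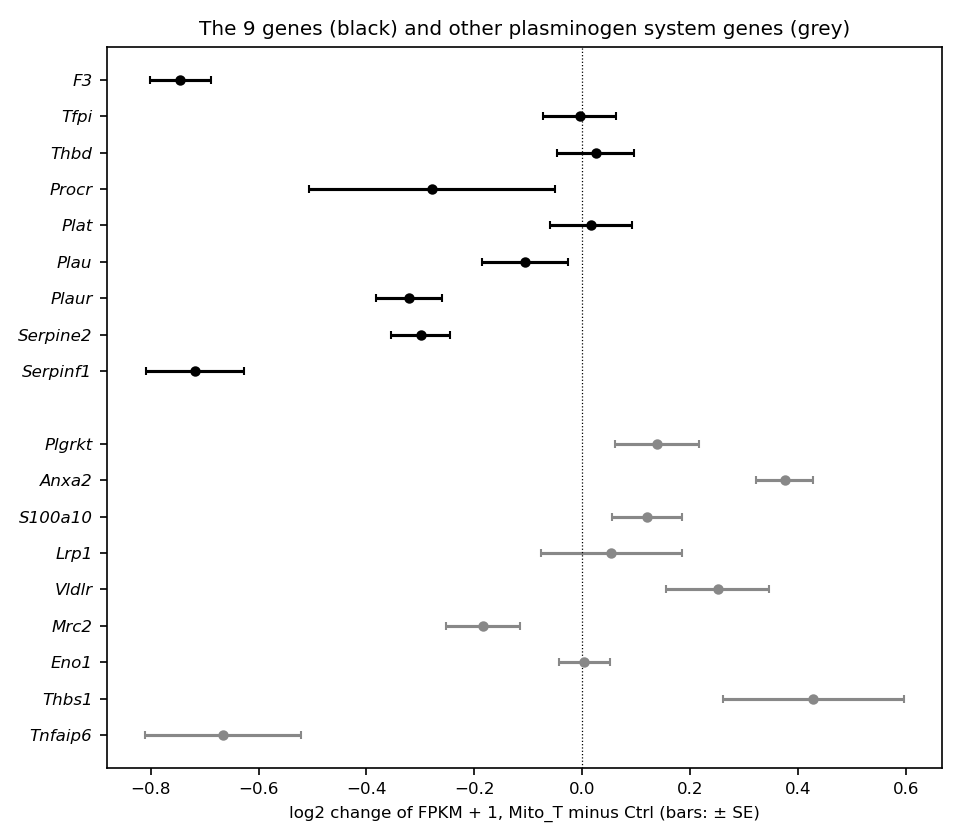
Log2 change of FPKM + 1, Mito_T minus Ctrl (x axis), with bars of ± 1 SE, for the 9 genes in black and for 9 other plasminogen system genes tested in grey. F3 at −0.74 and Serpinf1 at −0.72 lie farthest left among the 9 genes, and Anxa2 at 0.37 is the grey gene called by limma.

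By level per length over all 6 libraries, Procr was the highest of the 9 genes with a mean of 26.7 FPKM, above 84.1% of all genes tested, and Serpine2 followed at 19.1 FPKM. The ranges of Procr, 20.3 to 39.8 FPKM, and Serpine2, 16.5 to 22.04 FPKM, overlapped, and both lay above every library of the other 7 genes. Plau, Plat, Thbd and Tfpi followed at 12.3, 11.7, 10.5 and 9.13 FPKM, and each overlapped its neighbour in that order. F3 at 7.94 FPKM, Plaur at 6.66 FPKM and Serpinf1 at 5.03 FPKM were the lowest, and Serpinf1 lay above 38.3% of all genes tested. The place of F3 differed by group, since its Ctrl libraries overlapped those of Thbd and its Mito_T libraries those of Plaur.

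Among other genes of the plasminogen system, limma called Anxa2 higher and none lower. Anxa2, a surface protein that binds plasminogen and tPA, was at 317, 318 and 307 FPKM in Mito_T libraries and at 248, 245 and 232 FPKM in Ctrl libraries. It rose, with a log2 change of 0.37 and an SE of 0.05 (limma adjusted p = 0.0324), and of the fits without 1 library the one without Ctrl replicate 1 kept the call. Without the others its limma adjusted p was 0.0540 (Ctrl replicate 3), 0.0986 (Mito_T replicate 3), 0.135 (Ctrl replicate 2), 0.160 (Mito_T replicate 2) and 0.173 (Mito_T replicate 1). S100a10, the partner of Anxa2 in that complex, was at 159 ± 1.5045 FPKM in Mito_T and 147 ± 11.1 FPKM in Ctrl (SD, n = 3; limma adjusted p = 0.470).

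Of 15 listed genes of this system other than the 9, 9 were tested, limma called 1 higher and 0 lower, with 5 at an unadjusted p under 0.05 against 13.9% of all genes tested, and the median log2 change was 0.12. Tnfaip6, which encodes the hyaluronan-binding protein TSG-6, had the largest change of the 9, lower without overlap at 24.4 ± 3.78 FPKM in Mito_T and 39.2 ± 5.82 FPKM in Ctrl (SD, n = 3; log2 change −0.67, limma adjusted p = 0.1003). Mrc2, a collagen receptor, was also lower without overlap, at 17.9 ± 0.988 FPKM in Mito_T and 20.4 ± 1.39 FPKM in Ctrl (limma adjusted p = 0.304). Plg, the plasminogen gene, reached at most 0.101 FPKM. Within a library, Plau stood at 2.04, 2.03 and 2.01 times the level of its receptor gene Plaur in Mito_T, against 1.77, 1.76 and 1.57 times in Ctrl. Ligand over receptor was higher in every Mito_T library than in any Ctrl library, while the levels of Plau itself overlapped.

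**Figure D3:**
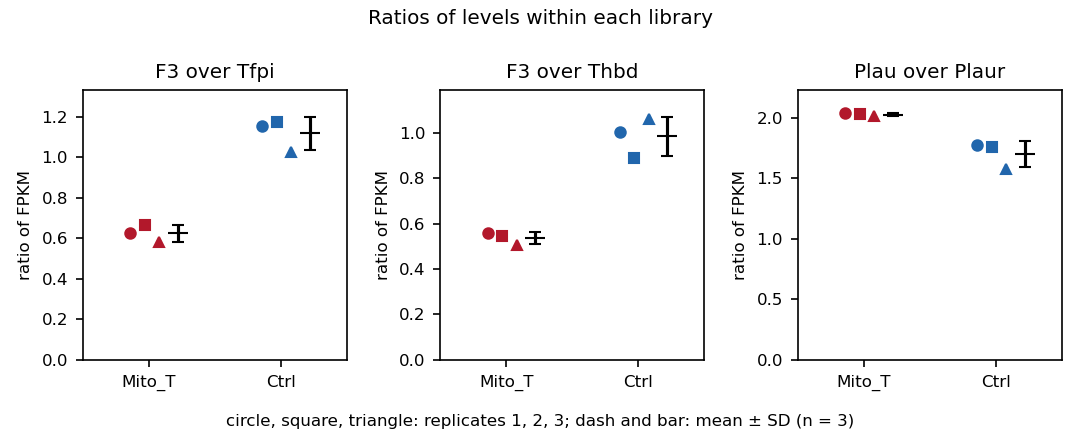
Ratios of FPKM within each library (y axes from 0), Mito_T left and Ctrl right, with replicates 1, 2 and 3 as circle, square and triangle and the mean ± SD (n = 3). F3 over Tfpi averages 0.625 in Mito_T and 1.12 in Ctrl, F3 over Thbd 0.537 in Mito_T and 0.983 in Ctrl, and Plau over Plaur 2.03 in Mito_T and 1.70 in Ctrl. F3 was chosen for its fall, and its ratios restate that fall.

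Most genes of the coagulation factors themselves were too low to test. Of 21 listed factors and enzymes of their maturation, 15 stayed below 1 FPKM throughout and 6 entered the test, none of which was called by limma, with 2 at an unadjusted p under 0.05 against 13.9% of all genes tested. F5, the cofactor of factor Xa, was at 1.12 ± 0.160 FPKM in Mito_T and 2.13 ± 0.552 FPKM in Ctrl (SD, n = 3; limma adjusted p = 0.152). The vitamin K enzyme Vkorc1 was at 18.1 ± 1.52 FPKM in Mito_T and 30.0 ± 8.79 FPKM in Ctrl (limma adjusted p = 0.236), and Mcfd2, which helps carry factors V and VIII out of the endoplasmic reticulum, at 15.2 ± 0.323 FPKM in Mito_T and 16.5 ± 1.66 FPKM in Ctrl (limma adjusted p = 0.597). Among 11 other inhibitors 2 were tested, Pros1 and Anxa5, and neither was called by limma, while 1, Pros1, had an unadjusted p under 0.05. Anxa5, which covers exposed phosphatidylserine, was at 163 ± 3.28 FPKM in Mito_T and 156 ± 5.596 FPKM in Ctrl (limma adjusted p = 0.639). F2r, the thrombin receptor PAR1, was the receptor gene tested of 5, at 24.1 ± 1.02 FPKM in Mito_T and 25.6 ± 0.623 FPKM in Ctrl (limma adjusted p = 0.533).

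Among other serpins limma called none. Of 12 listed, 8 were tested, and 4 had an unadjusted p under 0.05, against 13.9% of all genes tested. A positive log2 change was found in 7 of the 8, and their median was 0.30, against −0.0061 for all genes tested. Serpinb1a, Serpinb6a, Serpinb6b and Serpinb9 lie together on chromosome 13, between 32842092 and 34002794, so these counts are not over separate loci. No contrast with Serpinf1 is drawn, since that gene was chosen for its fall. The groups did not overlap in the higher direction for 4 of the 8, against 9.62% of all genes tested. In the lower direction they did not overlap for 1, Serpinh1, against 11.4% of all genes tested. Serpinb6a, an intracellular protease inhibitor, was at 20.2 ± 0.847 FPKM in Mito_T and 16.5 ± 0.526 FPKM in Ctrl (SD, n = 3; limma adjusted p = 0.0777). Serpina3n, which belongs to a family of near-identical mouse copies whose reads can be assigned to either, was at 25.04 ± 1.06 FPKM in Mito_T and 20.9 ± 4.45 FPKM in Ctrl (limma adjusted p = 0.454). Serpinh1, the collagen chaperone HSP47, was at 120.4 ± 5.27 FPKM in Mito_T and 145 ± 25.0 FPKM in Ctrl (limma adjusted p = 0.398).

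Genes described as receptors or partners of PEDF did not pass the limma threshold, with 4 of 6 tested and 1, Pnpla2, at an unadjusted p under 0.05. Pnpla2, a triglyceride lipase that binds PEDF, was at 19.1 ± 1.83 FPKM in Mito_T and 23.6 ± 3.71 FPKM in Ctrl (SD, n = 3; limma adjusted p = 0.357). Rpsa, the laminin receptor, was at 172 ± 3.60 FPKM in Mito_T and 154 ± 14.6 FPKM in Ctrl (limma adjusted p = 0.423). Atp5b, the beta subunit of ATP synthase, was at 174 ± 1.76 FPKM in Mito_T and 172 ± 4.98 FPKM in Ctrl (limma adjusted p = 0.931). Of 11 genes listed as antiplatelet or prothrombotic at the endothelial surface, 5 were tested and limma called none. An unadjusted p under 0.05 was reached by 2 of the 5, against 13.9% of all genes tested. Nt5e, which makes adenosine, was at 1.81 ± 0.142 FPKM in Mito_T and 1.24 ± 0.233 FPKM in Ctrl (limma adjusted p = 0.204), and Ptgs1, a cyclooxygenase, at 57.6 ± 5.52 FPKM in Mito_T and 60.0 ± 3.83 FPKM in Ctrl (limma adjusted p = 0.800). Hs3st1, a heparan sulphate sulphotransferase, was at 2.77 ± 0.951 FPKM in Mito_T and 3.86 ± 1.05 FPKM in Ctrl (limma adjusted p = 0.501).

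**Figure D4:**
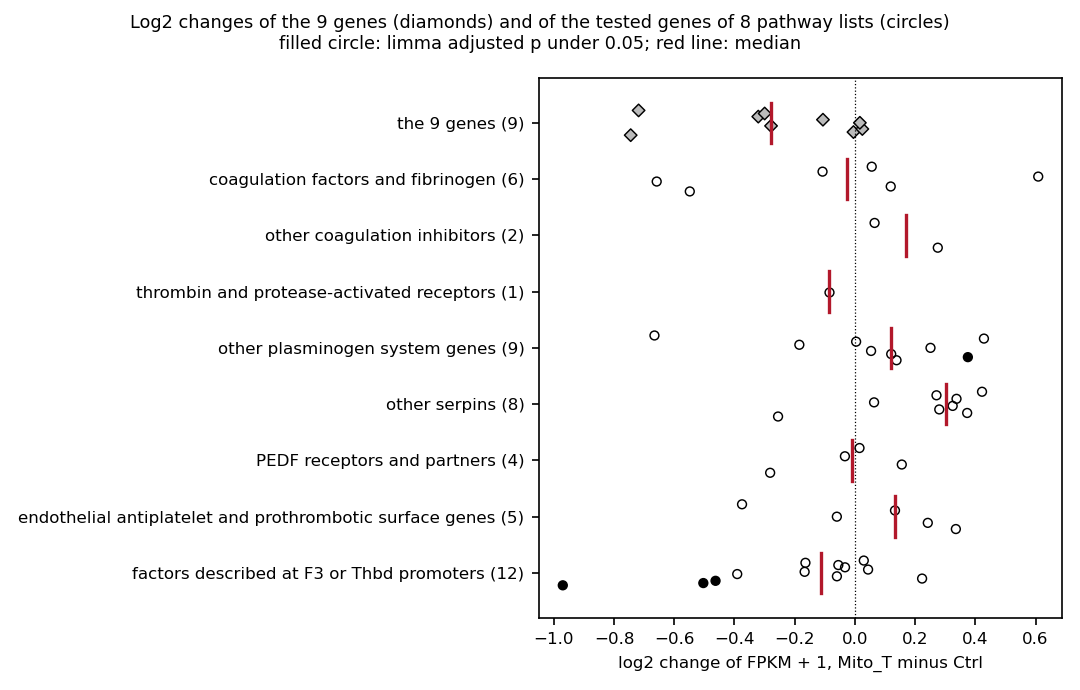
Log2 change of FPKM + 1, Mito_T minus Ctrl (x axis), for the 9 genes (diamonds) and for the tested genes of 8 pathway lists (circles, number tested in brackets), with filled circles for limma calls and red lines for medians. The 4 filled circles are Anxa2, Egr1, Fos and Fosl1.

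The bases before the F3 start held motifs of factors that are known from work on the human gene to act at its promoter, namely AP-1, NF-kappaB and Sp1. Promoter windows of RefSeq, on GRCm38.p6, were found for 6 of the 9 genes, all but Thbd, Plat and Plau, and 250 bases before each start were searched on both strands. The motifs were AP-1 (TGANTCA), EGR1 (GCGNGGGCG), the GC box of Sp1 (GGGCGG), a kappaB site (GGNNTTTCC) and the TATA box (TATAAA), and EGR1 matches can share bases with GC boxes. The windows of the 2 genes on which the list was chosen, F3 and Serpinf1, and of the 2 others with an AP-1 match, Plaur and Procr, are printed 5′ to 3′ on the strand of the gene, without bases next to the start that lie in GENCODE exons of the gene itself, and capitals mark the matches.
F3, chr3:121723287-121723536, plus strand: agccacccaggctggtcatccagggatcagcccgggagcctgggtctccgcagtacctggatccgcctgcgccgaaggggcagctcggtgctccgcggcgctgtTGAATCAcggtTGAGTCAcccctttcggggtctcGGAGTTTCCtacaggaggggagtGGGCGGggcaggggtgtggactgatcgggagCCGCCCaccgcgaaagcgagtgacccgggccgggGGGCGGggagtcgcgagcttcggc
Serpinf1, chr11:75422702-75422873, minus strand: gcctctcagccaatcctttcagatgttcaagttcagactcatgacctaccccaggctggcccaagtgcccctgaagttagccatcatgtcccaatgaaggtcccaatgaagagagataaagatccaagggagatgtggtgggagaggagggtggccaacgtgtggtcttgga
Plaur, chr7:24462233-24462482, plus strand: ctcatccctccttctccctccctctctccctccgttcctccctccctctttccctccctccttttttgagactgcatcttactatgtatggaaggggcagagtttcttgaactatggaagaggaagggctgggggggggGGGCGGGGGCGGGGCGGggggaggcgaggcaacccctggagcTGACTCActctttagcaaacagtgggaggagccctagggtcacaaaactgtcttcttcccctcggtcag
Procr, chr2:155750967-155751116, plus strand: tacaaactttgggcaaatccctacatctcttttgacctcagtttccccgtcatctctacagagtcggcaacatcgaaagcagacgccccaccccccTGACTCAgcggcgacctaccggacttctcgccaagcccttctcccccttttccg

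The F3 window held 2 AP-1 matches, which begin 146 and 135 bases before the start, a kappaB match that begins 112 bases before it, and 3 GC boxes. The Serpinf1 window held none of the 5 motifs. Plaur had 1 AP-1 match, 1 EGR1 match and 3 GC boxes, and Procr had 1 AP-1 match. Serpine2 also had an EGR1 match, with several GC boxes, and the Tfpi windows held GC boxes and a TATA box. The F3 window held no EGR1 match. AP-1 matches were thus in 3 of the 6 genes, of which F3 and Plaur were lower in Mito_T without overlap and Procr overlapped, while Serpine2 and Serpinf1 were lower and had none. Among 32851 promoter windows of the same length, 6.75% held an AP-1 match, 4.70% an EGR1 match and 4.93% a kappaB match. A GC box was in 32.7% and a TATA box in 12.4%. Across these windows the median GC content was 52.4%, against 70.0% in the F3 window, 59.6% in that of Plaur and 51.6% in that of Serpinf1. The Serpinf1 window overlaps Gm12336, a lincRNA listed at 0 in every library, and that of F3 overlaps Gm43823 on the opposite strand, at 0.0671 to 0.268 FPKM.

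Of 14 genes of factors described at the F3 or Thbd promoters, 12 were tested and 3 fell, Egr1, Fos and Fosl1, where 0.649% of all genes tested were called lower. Egr1, an immediate early factor, was at 11.96, 12.4 and 9.60 FPKM in Mito_T and at 26.3, 25.5 and 18.2 FPKM in Ctrl, and its log2 change was −0.97 with an SE of 0.16 (limma adjusted p = 0.0461). The AP-1 subunit genes Fos and Fosl1 changed by −0.50 (SE 0.07, limma adjusted p = 0.0324) and −0.46 (SE 0.07, limma adjusted p = 0.0437). Fos was at 2.09 ± 0.156 FPKM in Mito_T and 3.38 ± 0.169 FPKM in Ctrl, and Fosl1 at 5.48 ± 0.533 and 7.92 ± 0.0943 FPKM (SD, n = 3). Fos and Fosl1 lost the call without any one library, with limma adjusted p-values of 0.0601 to 0.157 and 0.0770 to 0.173. Egr1 kept it without Ctrl replicate 3 and lost it without each other library, with limma adjusted p-values of 0.112 to 0.161. Egr1 also lost it with plain empirical Bayes, at a limma adjusted p of 0.0553. Fosl2, also an AP-1 subunit gene, was higher without overlap, at 26.9 ± 1.51 FPKM in Mito_T and 22.9 ± 1.54 FPKM in Ctrl (SD, n = 3; limma adjusted p = 0.218). Junb was lower without overlap, at 17.8 ± 1.89 FPKM in Mito_T and 23.7 ± 2.07 FPKM in Ctrl (limma adjusted p = 0.136). Jun overlapped, at 5.75 ± 0.471 FPKM in Mito_T and 6.05 ± 0.735 FPKM in Ctrl (limma adjusted p = 0.837). Jund, another AP-1 subunit, was at 50.6 ± 3.19 FPKM in Mito_T and 57.0 ± 3.47 FPKM in Ctrl (SD, n = 3; limma adjusted p = 0.352). Rela, the NF-kappaB subunit p65, was at 31.4 ± 0.805 FPKM in Mito_T and 32.1 ± 1.96 FPKM in Ctrl (limma adjusted p = 0.860). Whether these factors bear on the level of F3 was not tested.

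Across the 6 libraries, the genes most like F3 among 7274 compared were Ppp1r11, Chmp3, Golm1, Col1a1 and Emc2, with Pearson's r of log2 levels between 0.993 and 0.997. Ppp1r11, an inhibitory subunit of protein phosphatase 1, was at 25.2 ± 0.582 FPKM in Mito_T and 37.4 ± 0.956 FPKM in Ctrl (SD, n = 3). Those most like Serpinf1 were Ltbp1, Efnb1, Fam162a, Xpo5 and Boc, with r between 0.995 and 0.998. Ltbp1, which tethers latent TGF-beta to the matrix, was at 9.57 ± 1.05 FPKM in Mito_T and 18.02 ± 0.894 FPKM in Ctrl, whereas Xpo5, an exporter of microRNA precursors, was at 16.7 ± 0.178 FPKM in Mito_T and 17.6 ± 0.0941 FPKM in Ctrl. Xpo5 shows that r reads the shape of a profile and not its size. Over 6 libraries that fall into 2 groups, 123 genes had r above 0.95 with F3 and 91 with Serpinf1. Tfpi and Thbd, whose groups overlapped, had r of 0.03 and −0.17 with F3.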

How the data were processed

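Expression was measured in 6 libraries, 3 Mito_T and 3 Ctrl. The authors deposited 1 FPKM value per gene and library; the headers name no unit, and FPKM was read from the values, which are decimals and sum to between 281433 and 297838 per library. The submitters' processing notes name StringTie 1.3.1c, STAR 2.5.3a, FastQC 0.11.5 and the build GRCm38 (mm10); annotation release, parameters and use of strand are not given in the sources used here. Libraries were stranded mRNA, per the labels' protocols. GENCODE M21 gave names to 55154 of 55335 identifiers.

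Depth was estimated from the value of 1 fragment in genes with a single transcript. Between 20.8% and 22.9% of low values lay within 0.02 of whole fragments, so reads were not recovered. No 2 libraries were duplicates (r of log2 levels 0.983 to 0.994, identical values in 0.0% of genes).

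limma 3.58.1 in R 4.3.3 was run on log2(FPKM + 1) with group as the term, trend and robust options and Benjamini-Hochberg adjustment over the 12639 genes that reached 1 FPKM in 3 or more libraries; the pseudocount understates changes of low genes. A gene was called at an adjusted p under 0.05. The code was tested on 10 simulated sets of 12639 genes with 200 changed. There limma called 50% of the genes changed 1.5-fold and 78.9% of those changed 2-fold, and 4.46% of its calls were false. A gene that was not called is therefore not shown to be unchanged. The genes, lists and tests were chosen with earlier results of these data known. Named list genes were up to 4 called per list, the one with the smallest p where none was called, and the 2 with the highest mean. Cd34, Flt1, Kdr, Eng, Ly6c1, Tie1, Egfl7, Esam, Tmem119, Cd68, Csf1r, Col3a1, Pdgfra, Pdgfrb, Acta2, Aldoc, Aldh1l1, Gja1, Tnfaip6, Mrc2, Fosl2, Junb and Jun were named after their values were seen. Likeness used tested genes averaging 5 FPKM or more, leaving out predicted genes, and took the 5 highest r. No exons of other genes overlapped exons of the 9 genes, and at most 1.11% of the 31-base words of any of the 9 occur in other genes. Other settings were a pseudocount of 0.1, genes averaging 5 FPKM or more, no filter, TMM factors (own code), quantile normalization, TPM, plain empirical Bayes, the replicate block and omission of each library. One further gene of the plasminogen list was left out of the lists and counts and is not reported here.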

Additional observations from a re-analysis of the deposited data

How the results depend on the processing

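The median log2 change of the 9 genes, −0.28, lay between −0.29 and −0.27 in 8 other settings and between −0.32 and −0.18 when each library was left out. F3 and Serpinf1 kept a negative change in all of these, whereas Tfpi, Thbd and Plat, all near 0, changed sign in fits without 1 library, and Tfpi with TMM and quantile scaling too; F3 and Serpinf1 were at −0.83 and −0.85 with a pseudocount of 0.1. F3 was at −0.82 on TPM. Both filter settings, plain empirical Bayes and the replicate block left the log2 changes of the 9 genes as they were, as they must in this design. In all 8 settings the median of the 9 genes was the value of Procr, the most variable of them, with an SE of 0.23. Its narrow range there thus says little about the other genes. In limma, 141 genes were called in all, 13 with no filter, 56 with the replicate block, and 15 to 84 when each library was left out. Of the pathway lists, limma called 1 gene higher and 3 lower. With no filter it called 0 higher and 0 lower, with the replicate block 0 higher, and without 1 library 0 to 1 higher and 0 to 1 lower; arms left with 1 library fewer borrow the pooled spread. Summed astrocyte markers differed by −0.25 FPKM and by −14.9 to 10.7 FPKM when each library was left out; the sums of the other 3 marker lists kept their direction in the settings run. The cause of these shifts was not tested. Same-numbered libraries had correlated deviations of 0.102, 0.0463 and 0.30. Mito_T replicate 1 went best with Ctrl replicate 2, at 0.123, so the numbers were not taken as pairs in the main fit. Replicate 3 of either group had −0.203 to −0.132 with the other numbers of the other group, and whether the replicate 3 libraries share an effect was not tested. With the block, limma lost Anxa2, Fos and Fosl1 and gained Tnfaip6 (adjusted p = 0.0268). No scaling moved the median of all genes by over 0.1. Depth limits the genes under 1 FPKM, which were not tested.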
